A study of Canis lupus familiaris with 33 samples.

Results

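The chemokines described here are 10 small secreted or membrane-bound attractants of leukocytes, CCL2, CCL3, CCL4, CCL5, CCL7, CCL8, CCL19, CXCL14, CXCL16 and CX3CL1, measured by RNA sequencing in canine invasive urothelial carcinoma (iUC) and normal bladder mucosa. They are 10 of the 25096 genes of the TMM-normalized table. Of these, 9 were found by their gene symbol, and CXCL16, whose row holds no symbol, was found through the Entrez gene number in the same row. The study compared bladder tissue of the domestic dog (Canis lupus familiaris) from 29 tumors and 4 normals. The tumors were high-grade iUC from dogs that had received no treatment, taken as biopsies by cystoscopy, with 1 tumor per dog. The normals, called A to D, were the mucosa lifted by fine dissection from bladders of dogs euthanized for other conditions, and the labels give their cells as normal urothelial cells. Breed, sex and age of the dogs were not used here.

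Chemokines are recognised by receptors on leukocytes, and the pattern of ligands in a tissue helps to set which cells enter it. CCL2, CCL7 and CCL8 act on CCR2 of monocytes. CCL3, CCL4 and CCL5 attract macrophages and T cells. CCL19 acts on CCR7 and draws naive T cells and mature dendritic cells to lymphoid tissue. CXCL14 is a conserved chemokine made by epithelium and fibroblasts. CXCL16 and CX3CL1 are made as membrane proteins with a chemokine domain on a mucin stalk, are shed by the proteases ADAM10 and ADAM17, and are bound by CXCR6 and CX3CR1.

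Each deposited value is a log2 expression level from which the median of that gene over the 33 samples was subtracted, so a value of 0 is the middle sample and levels cannot be compared between genes. Values are given on this scale, and a difference of 1 between samples is a 2-fold difference. Tumors and normals were compared with limma, and a gene was called where it changed 2-fold or more and its p, adjusted by Benjamini-Hochberg over the 24471 genes tested, did not exceed 0.05. All 10 chemokines were tested.

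Some facts of the whole series stand beside every comparison of tumors with normals. In each sample, some genes lay at the lowest value that the table holds for them, which several samples shared. This was true of 755 to 1019 genes in the normals and of 3699 to 8175 genes in the tumors, and 3 tumors, with 3699 to 4638 such genes, stood apart from the other tumors, which had at least 5945. Olfactory receptor genes, which bladder is not known to use, were called lower in tumors for 461 of 465, with a median change of -5.39. The median change of all genes tested was -0.84, and that of genes whose median lay above the lowest value was -0.01. Markers of smooth muscle were called lower in tumors for 7 of 7 genes (median change -6.13). Those of fibroblasts were called lower for 7 of 9 (median -3.03) and higher for 1, PDGFRA (1.62). Of 12 urothelial markers (median 1.11), 7 were called higher, among them EPCAM and CDH1, and 1, KRT20, was called lower (-3.75). The 4 urothelial markers not called had changes from -0.70 (KRT13) to 0.92 (GATA3). Among all genes, 10.7% were called higher and 45.8% lower. The mean of the smooth muscle markers ranged from 5.06 to 7.13 in the normals and from -1.11 to 3.91 in the tumors, so every normal, though labelled urothelial cells, stood above every tumor in this mean. The part of these differences in the results below was not tested. In bulk tissue, fewer cells of a type and less RNA per cell cannot be told apart.

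Of the 10 chemokines, 3 were called higher in tumors (CXCL16, CX3CL1 and CCL2) against 10.7% of all genes tested, and 2 were called lower (CCL3 and CCL19) against 45.8%. The median change of the 10 was 0.78, beside -0.84 over all genes. With 10 genes, these shares are a description of this list. The other 5, CCL4, CCL5, CCL7, CCL8 and CXCL14, did not pass the test.

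**Figure D1:**
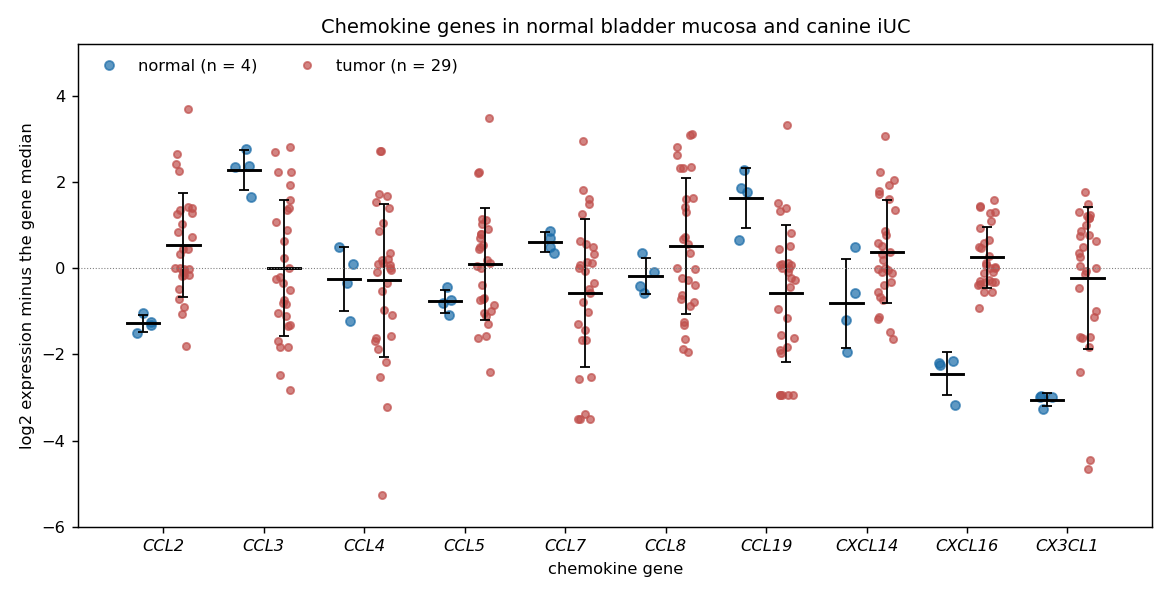
Log2 expression minus the gene median (vertical axis) of the 10 chemokine genes (horizontal axis) in the 4 normals (blue) and the 29 tumors (red). Each point is a sample, and bars mark the mean with its SD; all 29 tumors lie above the normals for CXCL16, 27 do for CX3CL1 and CCL2, and 24 lie below them for CCL3 and CCL19.

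The 2 membrane-bound chemokines differed most. CXCL16, which attracts T cells and NK cells that carry CXCR6 and also serves as a scavenger receptor, had values of -2.16, -2.19, -2.25 and -3.18 in normals A to D. Its tumors ranged from -0.93 to 1.57 with a median of 0.02. Every tumor lay above every normal, which was true of 7.63% of all genes. The change was 2.70 (SE 0.36), or 6.48-fold, with an adjusted p of 4.35e-08 in limma. CXCL16 was also the steadiest of the 10 among tumors, with an SD of 0.70 (n = 29) that lay at percentile 54.5 of all genes tested.

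In the RefSeq annotation of the dog assembly UU_Cfam_GSD_1.0, which is not the build of the tables and was used for names and order only, the ends of CXCL16 overlap those of ZMYND15 and MED11. Whether reads were counted by strand is not given in the sources used here, so reads from the overlaps cannot be told apart. ZMYND15 did not pass the test between the groups, with a change of 0.29 (SE 0.34, adjusted p = 0.444 in limma), nor did MED11, with 0.33 (SE 0.27, adjusted p = 0.27).

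CX3CL1, also called fractalkine, holds and attracts monocytes, NK cells and T cells that carry CX3CR1. The normals were close together at -2.98, -2.99, -2.96 and -3.26. The tumors spread from -4.67 to 1.76 around a median of 0.27. Most tumors, 27 of 29, lay above every normal and the other 2 lay below every normal, so no tumor fell within the narrow range of the normals. The change was 2.83 (SE 0.81), or 7.10-fold, with an adjusted p of 0.00255 in limma. The sheddase ADAM17 was called higher in tumors as well, by 1.24 (SE 0.19, adjusted p = 6.32e-07 in limma). For ADAM17 all 29 tumors lay above the normals, as they did for 7.63% of all genes. Of the receptors of these ligands, CXCR6 was called higher by 1.50 (SE 0.27, adjusted p = 8.51e-06), and CX3CR1 did not pass, with 0.22 (SE 0.53, adjusted p = 0.727).

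Among the CCR2 ligands, only CCL2 was called. CCL2, the classical attractant of monocytes, had values of -1.05, -1.24, -1.51 and -1.32 in the normals. Its tumors ranged from -1.80 to 3.69 with a median of 0.33. Here 27 of 29 tumors lay above every normal, 1 lay within their range and 1 below it. The change was 1.83 (SE 0.59), or 3.54-fold, with an adjusted p of 0.00681 in limma.

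CCL8, a CC chemokine of monocytes and eosinophils, had normals at 0.35, -0.58, -0.08 and -0.41, and tumors from -1.94 to 3.11 with a median of 0.36. The normals lay inside the tumor range, with 15 tumors above and 9 below all of them. The change of 0.70 (SE 0.77, 95% interval -0.87 to 2.26) did not pass the test, with an adjusted p of 0.421 in limma. CCL7, another attractant of monocytes, had normals at 0.36, 0.86, 0.48 and 0.71. Its tumors ranged from -3.51 to 2.96 with a median of -0.34, and 3 of them shared the lowest value. Although 21 of 29 tumors lay below every normal, 5 lay above, and the change of -1.18 (SE 0.84, 95% interval -2.90 to 0.53) did not pass, with an adjusted p of 0.209 in limma. CCR2 itself had a change of -0.30 (SE 0.71, adjusted p = 0.712).

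Among CCL3, CCL4 and CCL5, CCL3 was called lower, and CCL4 and CCL5 did not pass. CCL3, an inflammatory chemokine of macrophages and activated T cells, was high in every normal, at 2.36, 2.77, 1.65 and 2.34. The tumors ranged from -2.82 to 2.82 with a median of -0.25. Of them, 24 lay below every normal, 4 within the range of the normals and 1 above it. The change was -2.28 (SE 0.77), a 4.86-fold lower level, with an adjusted p of 0.00941 in limma.

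CCL4, its close relative is made largely by the same cells and encoded beside it. Its normals were at 0.49, -0.35, -1.23 and 0.10, and its tumors ranged from -5.26 to 2.72 with a median of 0.00. There were 8 tumors above and 8 below all normals. The change was -0.04 (SE 0.87, 95% interval -1.81 to 1.74, adjusted p = 0.974 in limma), an interval that also holds changes of more than 2-fold either way. The difference between the changes of CCL3 and CCL4 was not tested. Both belong to a family with close copies in the dog genome, and how reads that match several copies were assigned is not given in the sources used here.

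CCL5, also called RANTES, is made largely by T and NK cells. Its normals were at -1.08, -0.44, -0.80 and -0.75, against tumors from -2.40 to 3.48 with a median of 0.12. In 18 tumors CCL5 lay above every normal and in 5 below. The change of 0.86 (SE 0.64, 95% interval -0.43 to 2.15) did not pass the test, with an adjusted p of 0.225 in limma.

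CCL19 was called lower. Its normals were at 0.65, 1.85, 1.76 and 2.28, and its tumors ranged from -2.94, a lowest value that 4 tumors shared within 1e-06 and another reached after rounding, to 3.31, with a median of -0.22. Of the tumors, 24 lay below every normal, 4 within their range and 1 above. The change was -2.22 (SE 0.78), a 4.66-fold lower level, with an adjusted p of 0.0121 in limma, and without normal D it was -2.01 and no longer passed (adjusted p = 0.0518). Its receptor CCR7 had a change of -0.82 (SE 0.55, adjusted p = 0.186).

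CXCL14 had the widest normals of the 10, at -1.95, -1.21, -0.58 and 0.49 (SD 1.03, n = 4). Its tumors ranged from -1.65 to 3.06 with a median of 0.18, and 12 of 29 lay above every normal while 17 lay within their range. The change of 1.19 (SE 0.61, 95% interval -0.05 to 2.43) did not pass, with an adjusted p of 0.081 in limma, but without normal D, the highest normal, it was 1.62 and passed (adjusted p = 0.0384).

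Other genes of the chemokine system were described from lists chosen by function. Of 16 other chemokines tested, 1 was called higher and 7 lower, with a median change of -1.19, beside 10.7% higher and 45.8% lower among all genes. The largest changes were those of CCL26 at -4.59 (SE 0.44), CCL22 at -3.23 (SE 0.77), CCL25 at -2.91 (SE 0.41) and CXCL17 at -2.78 (SE 0.55). CCL26 attracts eosinophils, CCL22, also used as a dendritic cell marker, draws CCR4-bearing T cells, CCL25 draws CCR9-bearing T cells to the gut, and CXCL17 is a mucosal chemokine. In 13 tumors CCL26 lay at its lowest value, as did CCL25 in 20, CXCL17 in 9 and CCL22 in 3, so these folds depend on that value. The chemokine called higher, CCL17, which shares CCR4 with CCL22, changed by 2.50 (SE 1.07, adjusted p = 0.0372 in limma) and was named after its value was seen.

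Of 18 chemokine receptors, 1 was called higher, CXCR6, and 8 lower, with a median change of -1.16, beside the same shares of all genes. The largest were ACKR2 at -4.52 (SE 0.92), CCR9 at -4.17 (SE 0.59), CCR3 at -3.83 (SE 0.80) and CCR10 at -3.03 (SE 0.84). These folds too depend on the lowest value, where CCR3 lay in 8 tumors, ACKR2 and CCR10 in 4 each and CCR9 in 3. ACKR2 is a decoy receptor that takes up CC chemokines without signalling. In every tumor ACKR2, CCR9 and CCR3 lay below every normal, which was true of 28.5% of all genes.

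Of 12 inducers and processing genes of chemokines, 3 were called higher and 1 lower, again beside 10.7% and 45.8% of all genes. IFNG, the gene of interferon-gamma, changed by -4.95 (SE 0.76, adjusted p = 6.76e-07 in limma), with 14 tumors at the lowest value. IRF1, a transcription factor that interferon-gamma induces, was higher by 1.94 (SE 0.37), and TNFAIP3, a target and brake of NF-kB, by 1.08 (SE 0.37). Of 10 genes that respond to interferon-gamma, IRF1 included, 4 were called higher and 1 lower, with a median change of 0.84.

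The leukocyte lists lay between the muscle and the urothelial lists in their medians. Macrophage markers had 1 of 10 called higher and 1 lower (median change 0.47), T-cell markers 0 of 8 higher and 1 lower (median -0.68), and cytotoxic markers 0 of 5 higher and 2 lower (median -1.21). The mean of the macrophage markers ranged from -0.24 to 0.46 in the normals, inside the tumor range of -0.79 to 2.03, and that of the T-cell markers from 0.16 to 0.88, inside -2.09 to 3.13. MARCO, at its lowest value in 10 tumors, and CD8A, at its lowest value in 2, were the markers of these lists with such values, besides GZMB in 3. Of the remaining lists, 1 of 6 neutrophil markers was called higher and 1 lower, 0 of 10 B and plasma cell markers higher and 2 lower, 0 of 5 dendritic cell markers higher and 3 lower, and 0 of 7 endothelial markers in either direction. Among all genes, 10.7% were called higher and 45.8% lower.

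The next question was how the 10 genes varied together among the 29 tumors. Apart from CXCL16, they varied more than most genes, with SDs at percentiles 84.5 to 96.6 of all genes tested. Pearson's r and Spearman's rho were computed for the 45 pairs, with two-sided permutation tests of 100000 resamples, whose smallest p is 1e-05, and Benjamini-Hochberg adjustment over the 45. By r, 14 pairs passed at an adjusted p of 0.05, and by rho 12. All were positive.

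**Figure D2:**
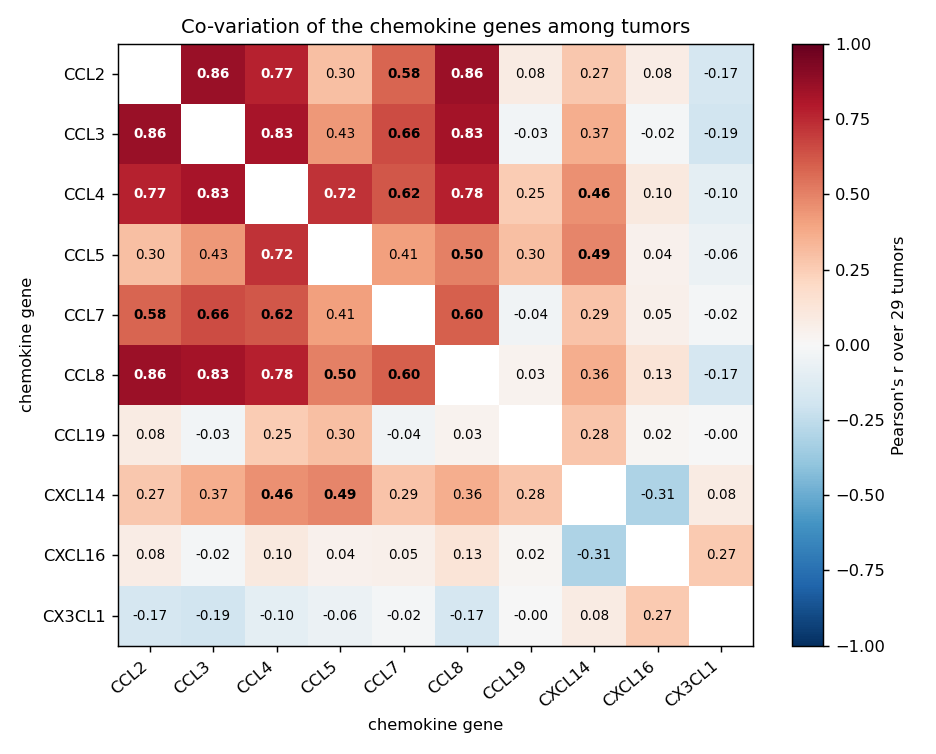
Pearson's r (colour and numbers) of each pair of the 10 chemokine genes (both axes) over 29 tumors; bold numbers passed at an adjusted p of 0.05. The 10 pairs among CCL2, CCL3, CCL4, CCL7 and CCL8 form a block with r of 0.581 to 0.863, and the rows of CCL19, CXCL16 and CX3CL1 hold no bold number.

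CCL2, CCL3, CCL4, CCL7 and CCL8 formed 1 block. All 10 pairs among them passed by r and by rho, with r from 0.581 to 0.863 and a median of 0.774. The closest pairs were CCL2 with CCL3 (r = 0.863, rho = 0.849, permutation p = 1e-05, adjusted p = 7.5e-05) and CCL2 with CCL8 (r = 0.858, rho = 0.851, permutation p = 1e-05, adjusted p = 7.5e-05). Without the 2 tumors farthest from the median of the first gene, these were 0.853 and 0.870. CCL7 was the loosest of the 5, with r of 0.581 to CCL2 and 0.656 to CCL3. The pair of CCL2 and CCL7 fell to r = 0.439 without the 2 farthest tumors and no longer passed (adjusted p = 0.0753), while the other 9 pairs passed under all 7 alternatives tried. Without the 3 tumors that stood apart in the number of genes at the lowest value, the 10 pairs still passed, with CCL2 and CCL3 at r = 0.847 and CCL2 and CCL8 at 0.851 (n = 26).

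CCL2, which was higher in tumors, and CCL3, which was lower, were thus the closest pair among the tumors. In the same assembly, CCL8, CCL7 and CCL2 follow each other with 0 listed genes between them, CCL4 and CCL3 are adjacent, and CCL5 lies 5 genes from CCL3 on that chromosome. The adjacent CCL7 and CCL2 had an r of 0.581, and CCL2 and CCL3, with 51 listed genes between them, had 0.863. The difference of these correlations was not tested.

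**Figure D3:**
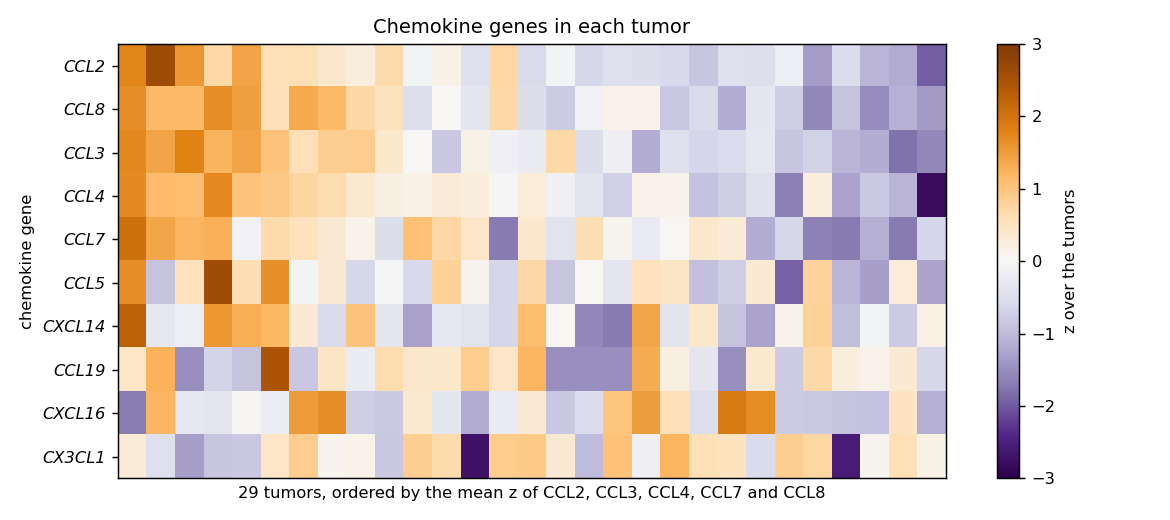
Value of each chemokine gene (rows) in each of the 29 tumors (columns), as z over the tumors (colour), with tumors ordered by the mean z of CCL2, CCL3, CCL4, CCL7 and CCL8. These 5 rows change together from left to right by construction of the order, and CCL19, CXCL16 and CX3CL1 show no such course, with r of at most 0.297 to any other of the 10.

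High values of several genes met in some tumors. When each gene was ranked over the tumors, 1 tumor was among the 5 highest for 7 of the 10 genes, 2 tumors for 6 genes each and 1 for 5. The tumor with 7 held the highest values of CCL4 (2.72), CCL7 (2.96) and CXCL14 (3.06) and the lowest of CXCL16 (-0.93), and it was 1 of the 3 tumors that stood apart. At the other end, 1 tumor was among the 5 lowest for 7 genes and 1 for 6.

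CCL5 passed with 2 of the 5 block genes. With CCL4 its r was 0.721 (rho = 0.687, permutation p = 3e-05, adjusted p = 0.000193), and it was 0.668 without the 2 farthest tumors. With CCL8 its r was 0.501 (permutation p = 0.00581, adjusted p = 0.0218), which passed under 3 of 7 alternatives only. CCL5 with CCL2 (r = 0.299), CCL3 (0.432) and CCL7 (0.407) did not pass, with adjusted p of 0.252, 0.0587 and 0.0782 in these permutation tests.

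CXCL14 had 2 passing pairs, with CCL5 (r = 0.488, permutation p = 0.00752, adjusted p = 0.026) and CCL4 (r = 0.458, permutation p = 0.012, adjusted p = 0.0386). Neither passed without the 3 tumors that stood apart, where r was 0.412 and 0.423 with adjusted p of 0.116 and 0.108.

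CCL19, CXCL16 and CX3CL1 had no passing pair. Over the 24 pairs that hold at least 1 of them, r ranged from -0.307 to 0.297 with a median of 0.026. The membrane-bound CXCL16 and CX3CL1 had an r of 0.265 with each other (permutation p = 0.166, adjusted p = 0.298).

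Each chemokine was then compared with the mean z of 11 marker lists over the tumors, 110 relations in all, and 47 passed by r at an adjusted p of 0.05 (40 by rho). The scores are themselves related, since macrophage and T-cell scores had an r of 0.668. Without the 2 farthest tumors 33 passed, and without the 3 tumors that stood apart 35.

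**Figure D4:**
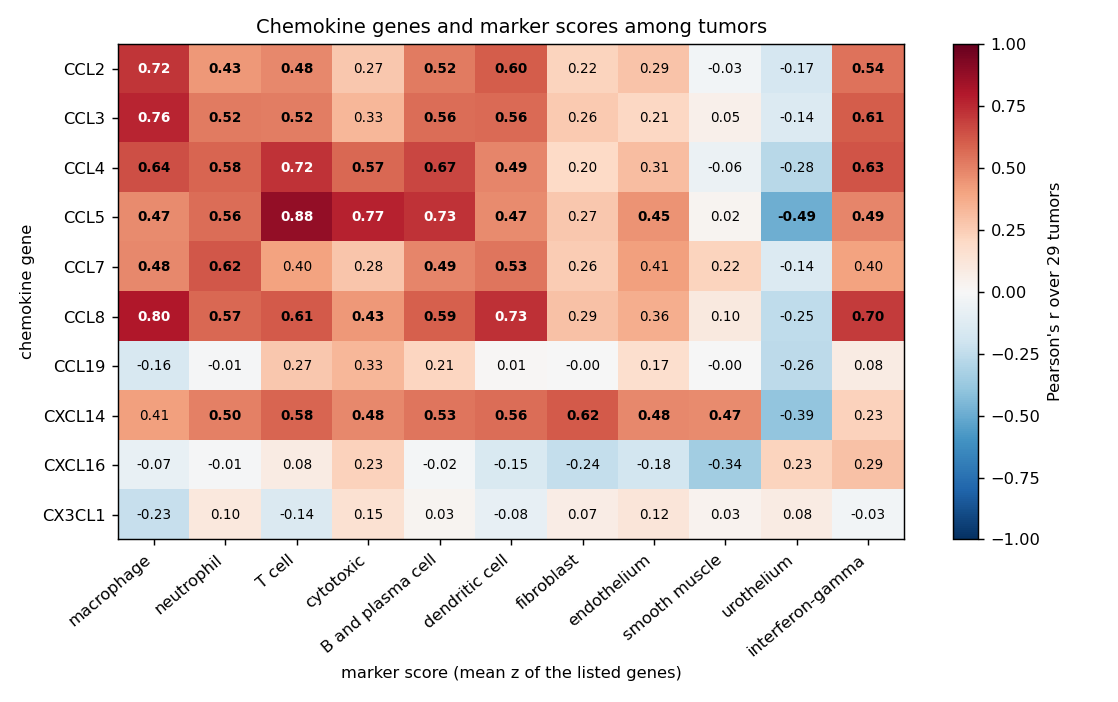
Pearson's r (colour and numbers) over 29 tumors of each chemokine gene (rows) with the mean z of each marker list (columns); bold numbers passed at an adjusted p of 0.05 over 110 relations. CCL8, CCL3 and CCL2 are strongest in the macrophage column (0.802, 0.761 and 0.716), CCL5 in the T-cell column (0.876), and CXCL14 in the fibroblast column (0.617).

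The macrophage score, built from genes such as CSF1R, CD68 and C1QA, followed CCL8 (r = 0.802, rho = 0.804, permutation p = 1e-05, adjusted p = 0.00022), CCL3 (r = 0.761, rho = 0.739, permutation p = 1e-05, adjusted p = 0.00022) and CCL2 (r = 0.716, rho = 0.792, permutation p = 4e-05, adjusted p = 0.000489). Without the 2 farthest tumors, r was 0.805, 0.703 and 0.694. These relations passed under all 7 alternatives. CCL4 (r = 0.642), CCL7 (0.482) and CCL5 (0.474) also passed, the last 2 not without the 2 farthest tumors.

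The block was not tied to macrophage markers alone. The neutrophil, dendritic cell, and B and plasma cell scores passed with the same 7 chemokines each, the 5 of the block, CCL5 and CXCL14. Without the 2 farthest tumors, fewer passed. The neutrophil score then passed only with CCL4, CCL7 and CCL8, and the dendritic cell score only with CCL2, CCL3, CCL8 and CXCL14. The B and plasma cell score no longer passed with CCL7 and CXCL14. CCL7 had its highest r with the neutrophil score (r = 0.622, rho = 0.596, permutation p = 0.00031, adjusted p = 0.00251; 0.537 without the 2 farthest tumors), which passed under all 7 alternatives. The dendritic cell score had an r of 0.729 with CCL8 (rho = 0.704, permutation p = 1e-05, adjusted p = 0.00022) and of 0.602 with CCL2 (rho = 0.644, permutation p = 0.00074, adjusted p = 0.00452).

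CCL5 had its highest r with the T-cell score. It was 0.876 (rho = 0.848, permutation p = 1e-05, adjusted p = 0.00022; 0.845 without the 2 farthest tumors), beside 0.766 with the cytotoxic score of granzymes and perforin (rho = 0.817, permutation p = 1e-05, adjusted p = 0.00022; 0.885 without the 2 farthest). By r, CCL5 passed with 9 of 11 scores, but with 4 by rho and with 3 without the 2 farthest tumors, those of T cells, cytotoxic cells and B and plasma cells (r = 0.726 over all tumors for the last). The T-cell score passed with 5 other chemokines too, CCL4 (r = 0.720, above its 0.642 with the macrophage score), CCL8 (0.615), CXCL14 (0.580), CCL3 (0.515) and CCL2 (0.478), the last 2 not without the 2 farthest tumors. CCL5 was also the gene of the 10 with a passing negative relation, to the urothelial score (r = -0.489, rho = -0.392, permutation p = 0.0072, adjusted p = 0.022), which did not pass by rho (adjusted p = 0.079) or without the 2 farthest tumors (r = -0.279).

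Because these 2 scores rise together, each was also taken with the other regressed out, a step added after the data were seen, with adjustment over its 20 tests. With the T-cell score regressed out, the macrophage score kept a partial r of 0.667 with CCL8 (permutation p = 6e-05, adjusted p = 0.0006), 0.654 with CCL3 (permutation p = 9e-05, adjusted p = 0.0006) and 0.607 with CCL2 (permutation p = 0.00052, adjusted p = 0.0026), and CCL5 had -0.307 (permutation p = 0.105, adjusted p = 0.191). With the macrophage score regressed out, the T-cell score kept a partial r of 0.853 with CCL5 (permutation p = 1e-05, adjusted p = 0.0002), 0.511 with CCL4 (permutation p = 0.00414, adjusted p = 0.0153) and 0.453 with CXCL14 (permutation p = 0.0138, adjusted p = 0.0346), whereas CCL2 (-7.48e-05), CCL3 (0.0134) and CCL8 (0.178) did not pass. CCL4 thus passed with the T-cell score and not with the macrophage score, where its partial r was 0.311 (permutation p = 0.0998, adjusted p = 0.191). The difference between these partial r of CCL4 was not tested, nor was that between its plain r with these scores. CCL19 passed with no score over all tumors but with the T-cell score without the 2 farthest (r = 0.521, permutation p = 0.0052, adjusted p = 0.0229). Its partial r was 0.513 with the T-cell score (permutation p = 0.00459, adjusted p = 0.0153) and -0.477 with the macrophage score (permutation p = 0.00952, adjusted p = 0.0272). Without regression, r of CCL19 with the macrophage score was only -0.163 and did not pass, and without the 2 farthest tumors it was 0.0492.

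CXCL14 passed with 8 of 11 scores by r, with 7 by rho and with 5 without the 2 farthest tumors. By r over all tumors, it was the only 1 of the 10 to pass with the fibroblast score (r = 0.617, rho = 0.592, permutation p = 0.00047, adjusted p = 0.00304; 0.487 without the 2 farthest tumors) and with the smooth muscle score (r = 0.471, rho = 0.635, permutation p = 0.0089, adjusted p = 0.0238; 0.616 without the 2 farthest). Which score stood highest thus depended on the measure, since fibroblasts led by r and smooth muscle by rho and without the 2 farthest tumors. Its relation to the macrophage score did not pass. CXCL16 and CX3CL1 passed with none of the 11 scores, with r from -0.345 to 0.295 and from -0.228 to 0.154, the urothelial score included. The interferon-gamma score followed CCL8 (r = 0.697, rho = 0.681, permutation p = 3e-05, adjusted p = 0.000471), CCL4 (0.630), CCL3 (0.607), CCL2 (0.541) and CCL5 (0.492), the last of which did not pass by rho.

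Ligands were also set against receptors over the tumors, with adjustment over 10 pairs. CCR2 followed CCL8 (r = 0.486, permutation p = 0.00756, adjusted p = 0.0151) but did not pass with CCL2 (r = 0.361, adjusted p = 0.0934) or CCL7 (0.222, adjusted p = 0.357) in the permutation test. The pairs of CCL19 with CCR7 (r = 0.170), CXCL16 with CXCR6 (-0.0761) and CX3CL1 with CX3CR1 (-0.129) did not pass either. Both CXCL16 and CXCR6 lay above every normal in all 29 tumors, as did 7.63% of all genes. Among the tumors, CXCL16 and CXCR6 were not detectably related.

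**Figure D5:**
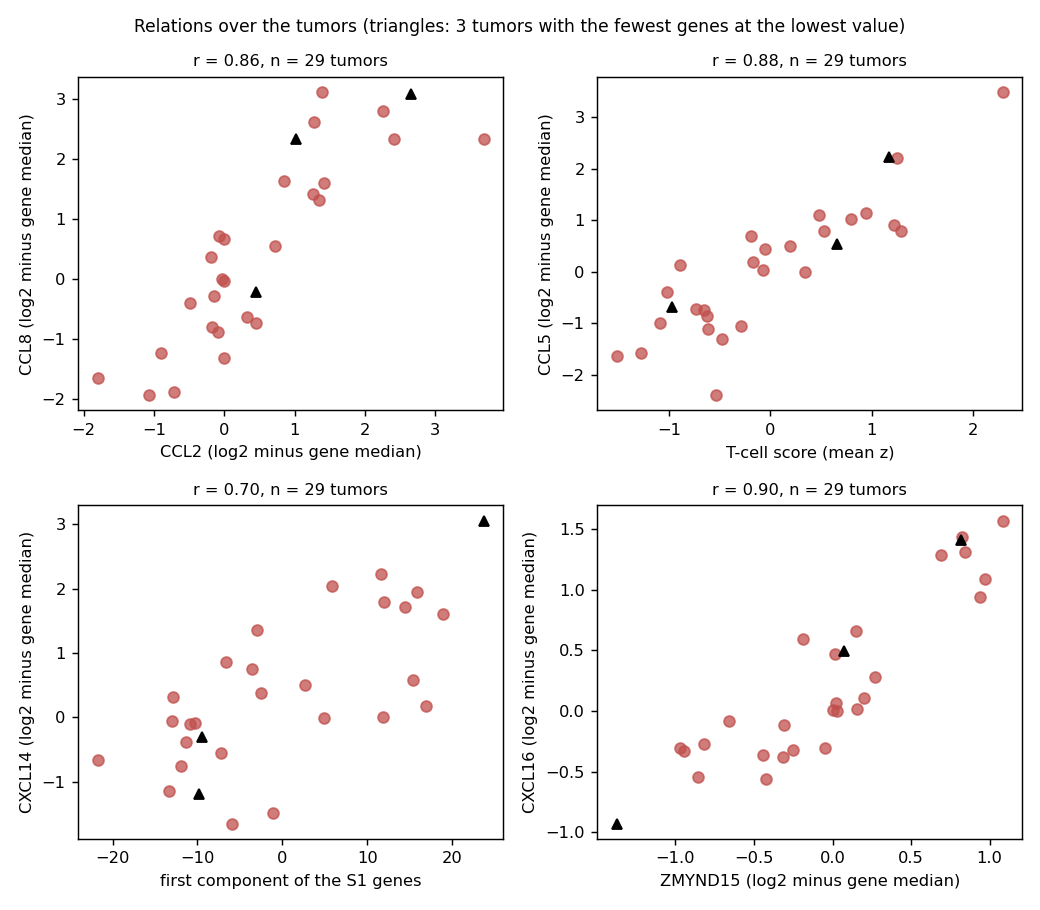
Relations over the 29 tumors, each point a tumor, with CCL8 against CCL2, CCL5 against the T-cell score, CXCL14 against the first component of the subtype genes, and CXCL16 against ZMYND15 (gene axes in log2 minus the gene median, scores in mean z). Triangles mark the 3 tumors with the fewest genes at the lowest value; r is 0.858, 0.876, 0.704 and 0.899.

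The study divided tumors into luminal and basal subtypes, which the labels do not give. As a continuous measure, the first principal component of 638 subtype genes was used, which held 25.1% of their variance. Its sign was set so that 17 luminal genes outside that list fall along it, to which it was only loosely related (r = -0.274, a description). The authors took these genes from human breast cancer subtypes and kept those that changed in these same samples, so the list is not independent of them. By r, 5 of 10 chemokines passed. CXCL14 was the clearest (r = 0.704, rho = 0.687, permutation p = 1e-05, adjusted p = 0.0001; 0.622 without the 2 farthest tumors), and it passed under all 7 alternatives. CCL7 (0.479), CCL8 (0.472), CCL3 (0.435) and CCL5 (0.417) passed too, but without the 2 farthest tumors, and also without the 3 that stood apart, only CXCL14 did.

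The number of genes at the lowest value and the share of olfactory receptor genes above it were set against the 10 chemokines as technical measures, and 0 of 20 relations passed after adjustment over the 20 (permutation test), with 5 at an unadjusted p under 0.05. The 5 block genes had r from -0.432 to -0.325 with the number of genes at the lowest value. With that number regressed out, 13 of the 45 chemokine pairs passed, including all 10 within the block.

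Finally, the genes most like each chemokine over the 29 tumors were listed among 11435 genes, as a description, from the first 5 places of each. For CCL2, CCL3 and CCL4, the first 3 places were held by other chemokines of the block. Next to them stood IL1B (r = 0.759 to CCL2), the gene of an inflammatory cytokine of macrophages, and IL10 (0.742 to CCL3, 0.751 to CCL4), an anti-inflammatory cytokine. CCL8 had CCL2 (0.858), HAVCR1 (0.834), CCL3 (0.829), CXCR4 (0.807) and CASP12 (0.795). ITPRIPL1 (0.744 to CCL2), HAVCR1 (0.771 to CCL3) and GBP5 (0.735 to CCL4), a guanylate-binding protein induced by interferon, completed the first 3 lists.

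CCL5 stood with T-cell genes, some of them markers of the T-cell score. Among them were CD5 (0.866), CD3D (0.853), an entry that the table gives only as a date (0.848) and TRAC (0.847), the constant region of the T-cell receptor alpha chain. CCL5 thus had no other chemokine among its first 5, and CCL4 came at rank 37. The genes most like CCL7 included CXCR4 (0.775), CERK (0.752), SOCS3 (0.697), which encodes a brake on cytokine signals, and PLEKHG1 (0.693).

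CXCL14 was most like RFTN1 (0.785), COL23A1 (0.783), TSHZ2 (0.739), ELN (0.737) and HHIPL1 (0.732), with a collagen and elastin among them. CXCL16 was most like its neighbour ZMYND15 (0.899), then GNG5 (0.858), AIMP2 (0.768), UQCR10 (0.756) and ADRM1 (0.748), while MED11 at its other end had an r of -0.0436. CX3CL1 stood with IL17RC (0.726), ENPP1 (0.694), PFKP (0.679), TUBB6 (0.678) and SH3BP4 (0.662). CCL19 had GRIP2 (0.768), WDR93 (0.648), ST6GALNAC5 (0.632), the microRNA gene cfa-mir-365-2 (0.627) and PEX11A (0.586), and only 0.175% of the genes compared had an r above 0.5 with it, against 2.64% for CCL2.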

How the data were processed

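RNA with an integrity number judged acceptable by the authors was depleted of ribosomal RNA, made into ScriptSeq libraries and sequenced in paired ends in 1 batch. The authors aligned the reads to CanFam3.1 with COBWeb in Strand NGS, normalized genes by TMM and, separately, by DESeq, and deposited log2 values minus each gene's median. They are not counts, so the depth of each sample is unknown, no count test was run and no pseudocount was added, as had been planned for a linear scale. An incomplete last line of each table was left out.

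Genes entered limma 3.58.1 (R 4.3.3; lmFit, eBayes with trend) where 4 or more samples exceeded the shared lowest value; values within 1e-06 of the lowest count as shared. Data were simulated on 24471 genes for this comparison, with 200 genes given a log2 change of 3. Where 1 spread per gene held for both groups, 181 were recovered with 10 false calls. Where each group had its own, 192 were recovered with 135 false calls, and which genes gave these was not examined. The chemokines each had a smaller SD in the normals than in the tumors, such as CX3CL1 (0.14 and 1.65) and CXCL14 (1.03 and 1.20). With a variance weight per group, 3 chemokines were called higher and 2 lower. Relations used Python 3.11.15, numpy 2.4.6 and scipy 1.17.1. Samples are single dogs, so p-values measure the spread between these dogs.

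The members, lists and tests were chosen with earlier results of these data known. Named genes were the 10 chemokines, the 4 largest called changes of each of the lists of other chemokines, receptors and inducers, the receptors of the ligands, and the 5 genes with a symbol of highest r to each chemokine, above the lowest value in at least 15 tumors. Alternatives were the authors' other table (DESeq-normalized), centred samples, no trend, a variance weight per group, other filters, no fold threshold, each normal left out, Spearman's rho, technical measures regressed out and tumors left out. Some genes that this rule names are not reported here. The subtype genes were read from the study's supplement as names only.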

Additional observations from a re-analysis of the deposited data

Results flagged for a closer look

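Among the 4 normals, normal D was the lowest for both membrane-bound chemokines and stood apart from the other three relative to their spread. For CXCL16, the gap between normal D (-3.18) and the next normal took up 0.918 of the range of the normals. For CX3CL1, at -3.26 in normal D and -2.99 to -2.96 in the others, it took up 0.904 of a narrow range. Chance marks about 1 in 20 such groups, and 10 genes were examined in the same 4 samples. Leaving out normal D left both genes called higher in tumors.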

How the results depend on the processing

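The calls of CCL2, CCL3, CXCL16 and CX3CL1 held under all 13 alternatives, with changes of 1.53 to 1.90, -2.57 to -2.12, 2.40 to 2.79 and 2.53 to 2.86. Adjusted p in limma ran from 0.00473 to 0.0518 for CCL19 and from 0.0384 to 0.306 for CXCL14. Each normal left out in turn gave 3 to 4 chemokines called higher and 1 to 2 called lower, the lowest count of lower calls, 1, being without normal D. CCL4, not called, changed sign without normal A (0.21) or D (0.08). No paired analysis was possible because the normals and tumors come from different dogs and share no replicate numbers.

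Of the 14 chemokine pairs, 10 passed under every alternative, and of the 47 relations to marker scores 26 did. The relation of CCL8 to CCR2 also did. The count of chemokines related to the subtype component was 3 with centred samples, 1 with the number of genes at the lowest value regressed out, 1 without the 2 farthest tumors and 1 without the 3 tumors that stood apart, an alternative chosen after the data were seen. CCL4 and the smooth muscle score, not passing over all tumors (r = -0.0553, rho = 0.394, permutation test), had r = 0.533 without the 2 farthest tumors. With the other score regressed out, also chosen later, CCL5 with the macrophage score became -0.307 and CCL2 with the T-cell score -7.48e-05. Causes were not tested. The depth of each sample is unknown; the lowest values of CCL7 and CCL19 were shared by 3 and 4 tumors, which bounds their folds.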
